A study of Mus musculus with 6 samples.

Results

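The genes described here are 10 that move or store lipid in macrophages: the sterol transporters *Abca1* and *Abcg1*, the apolipoprotein genes *Apoe* and *Apoc2*, the oxysterol-forming enzyme gene *Ch25h*, the lipase genes *Lpl*, *Lipg* and *Mgll*, the lipid droplet coat gene *Plin2* and the fatty acid carrier gene *Fabp4*. They were chosen by function and by their log2 differences in an earlier analysis of the same 6 arrays, so their own values and calls are given as a description and support nothing about the choice. All 10 were on the array, out of 34844 gene names, and 14 probes of 60 bases carried their names. Where a gene had several probes, the brightest on average stands for the gene and the others are given beside it.

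Gene expression was measured on one-colour Agilent mouse arrays in murine bone marrow–derived macrophages (BMDMs), cultured from marrow for 7 days with L929-conditioned medium, the usual source of macrophage growth factor. The cells of all 3 groups came from wild-type female C57/B6 mice whose labels give an age of 6 to 8 weeks, while the paper's methods give an older range. Untreated cells received no LPS. The LPS group received lipopolysaccharide, the bacterial ligand of TLR4, for 4 h at a dose given as 100 ng/ml for the series, while the treatment label writes the same figure per microlitre. The third group (LPS+USP7i) received 10 µM of the USP7 inhibitor HBX41,108 30 min before the same LPS stimulation. The sources used here do not state a solvent control for the LPS group. Each group had 2 arrays, from independent experiments according to the series record.

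Macrophages take up modified lipoproteins and dying cells and must dispose of the cholesterol they bring in. Free sterol leaves through ABCA1 and ABCG1 to apolipoproteins, under the control of the oxysterol-sensing LXR nuclear receptors, and what is not exported is esterified and kept in droplets coated with perilipins. LPL and endothelial lipase cut lipoprotein lipids outside the cell, monoacylglycerol lipase cuts the last acyl chain inside it, and cholesterol 25-hydroxylase makes 25-hydroxycholesterol, an oxysterol known from the antiviral response of macrophages.

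Between 25002 and 27467 of the 59305 spots on an array were well above background, and no spot was saturated. Over the 20721 probes well above background on all arrays, the 2 arrays of a group correlated at 0.995 in untreated cells. They correlated at 0.993 after LPS and 0.991 after LPS with the USP7 inhibitor. All arrays lay on 1 slide, with untreated cells in row 1, LPS in row 2 and LPS+USP7i in row 4, so that slide row and treatment cannot be told apart. With 2 arrays per group the smallest p that exact permutation allows is 0.333, and the adjusted p given below comes from limma fitted to all 55680 probes with Benjamini-Hochberg adjustment.

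After LPS, *Ch25h* and *Lipg* were higher and *Plin2* was lower at adjusted p under 0.05, which makes 2 of the 10 genes higher and 1 lower, while 7.99% of all gene names were higher and 12.7% lower. With the USP7 inhibitor added to LPS, *Ch25h* and *Lipg* were lower than with LPS alone and 0 of the 10 genes were higher, where 4.29% of all gene names were lower and 5.42% higher. Against untreated cells, LPS+USP7i left 1 of the 10 genes higher, *Ch25h*, and 0 lower, beside 6.15% and 8.78% of all gene names. At an unadjusted limma p under 0.05, 2 of the 10 genes were higher in LPS+USP7i minus LPS, beside 14.2% of all gene names, and 2 lower in LPS+USP7i minus untreated, beside 16.7%. The earlier choice of the genes used these same contrasts, so nothing is read from these shares.

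The median log2 difference of the 10 genes was -0.45 for LPS minus untreated, -0.15 for LPS+USP7i minus LPS and -0.33 for LPS+USP7i minus untreated, and over all gene names it was 0.00 in each. Without regard to sign, the median size was 0.60, 0.41 and 0.59 for the 10 genes and 0.35, 0.27 and 0.29 over all gene names. The 3 comparisons share arrays in pairs and are not independent of each other. These values rest on quantile normalization. Scaling each array to its 75th percentile instead moved the median of all genes by 0.40 in LPS minus untreated and by 0.44 in LPS+USP7i minus untreated, and raised the share of higher calls among called probes from 40% to 79.3% and from 43.4% to 82.7%.

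**Figure D1:**
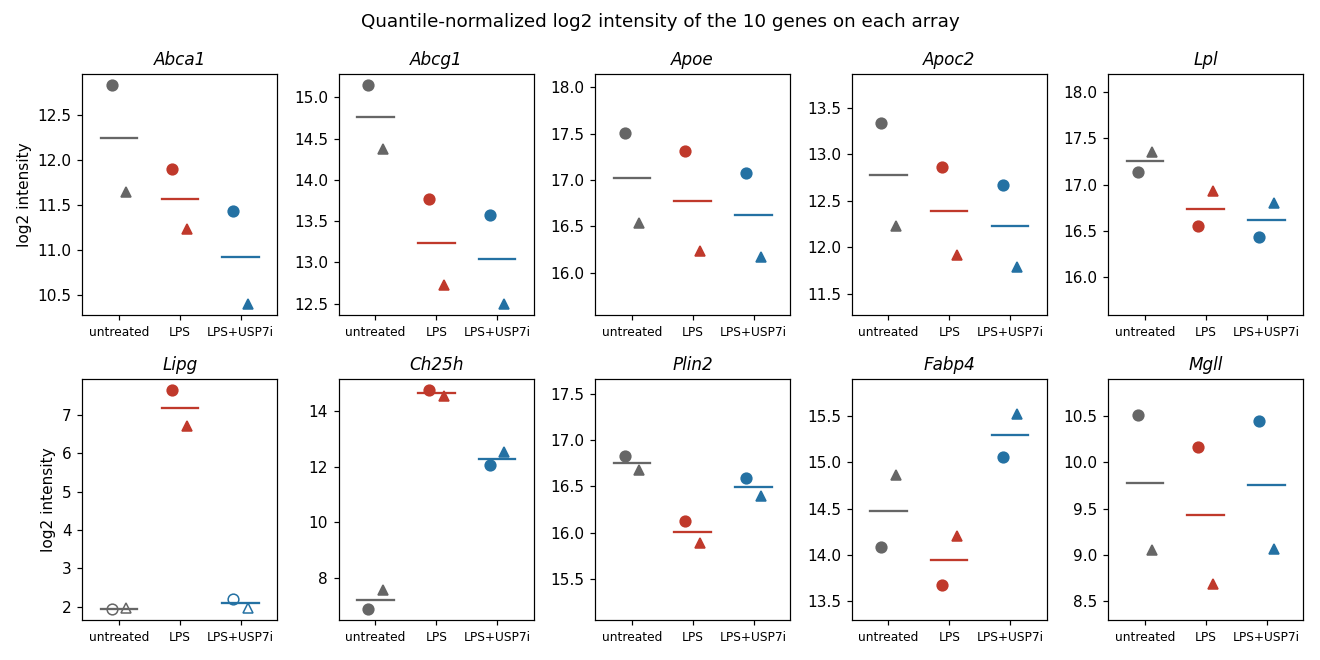
Quantile-normalized log2 intensity of each gene on each array (circles, replicate 1; triangles, replicate 2), with the group mean as a line and open symbols where no array of the group was well above background. The vertical scale differs between panels; *Ch25h* spans 6.91 to 14.75 and *Lipg* is measured above background only after LPS alone, whereas the arrays of *Mgll* differ more between replicates than between groups.

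*Ch25h*, whose enzyme adds a hydroxyl group to carbon 25 of cholesterol, gave log2 intensities of 6.91 and 7.57 in untreated cells, 14.75 and 14.53 after LPS, and 12.04 and 12.52 in LPS+USP7i. The 3 groups did not overlap: both untreated arrays were far below the rest, and both inhibitor arrays lay between the untreated and the LPS arrays. The gene rose by 7.40 ± 0.30 (SE, n = 2 per group) on the log2 scale after LPS, which is 169-fold, with an adjusted p of 0.00292. It was lower by a log2 difference of -2.36 ± 0.30 with the inhibitor added, or 5.13-fold, with an adjusted p of 0.0292. Even so, LPS+USP7i cells stayed 32.9-fold above untreated cells (log2 difference 5.04 ± 0.30, adjusted p = 0.00639). The difference between LPS+USP7i and LPS kept its sign but lost its call without any 1 of the 6 arrays (-2.60 to -2.11). The call was also lost when only these 2 groups were fitted (adjusted p = 0.0651). Leaving out an untreated array amounts to that same fit.

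The *Ch25h* probe is the 60-base oligonucleotide that all these values come from, at chr19:34548720-34548779 on the minus strand of mm9, the build of the array files. The promoter is shown because the gene had the largest measured difference of the 10; it is the RefSeq window from 250 bases before to 50 after the start, at chr19:34475099-34475398 on the minus strand of GRCm38.p6. Capitals mark the cyclic AMP response element TGACGTCA, which begins 61 bases before the start; this palindrome was found in 1.79% of the 32851 windows of this length. The motifs were picked after the sequences had been read, both strands were searched, and a match describes letters only.
Ch25h probe: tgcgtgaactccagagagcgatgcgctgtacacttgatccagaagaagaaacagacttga
Ch25h promoter: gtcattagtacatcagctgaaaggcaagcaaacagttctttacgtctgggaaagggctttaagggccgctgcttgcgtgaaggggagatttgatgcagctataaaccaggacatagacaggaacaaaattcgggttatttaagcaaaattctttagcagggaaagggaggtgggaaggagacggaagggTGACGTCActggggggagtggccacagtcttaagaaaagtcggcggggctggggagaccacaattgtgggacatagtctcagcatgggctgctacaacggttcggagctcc

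*Lipg* encodes endothelial lipase, a secreted phospholipase of the lipoprotein lipase family. Before normalization its spot gave a processed intensity of 3.23 and 4.33 in untreated cells, 164 and 99.7 after LPS, and 4.17 and 4.24 in LPS+USP7i. On the normalized log2 scale these were 1.95 and 1.96, then 7.65 and 6.70, then 2.21 and 1.96. Only the LPS arrays were well above background, 2 of 2, against 0 of 2 in either other group. The fold can therefore only be bounded, by setting each dim array at the lowest value that was well above background on it: *Lipg* was at least 9.63-fold higher after LPS than in untreated cells (adjusted p = 0.00464) and at least 7.45-fold lower in LPS+USP7i than after LPS (adjusted p = 0.0133). Between LPS+USP7i and untreated cells no fold is given, since neither was well above background. In a fit of LPS+USP7i and LPS alone, the adjusted p for the inhibitor was 0.0612, which loses the call. Leaving out an untreated array amounts to that same fit.

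*Lpl*, the lipase that releases fatty acids from triglyceride-rich lipoproteins, had 2 probes, both well above background on all arrays. The brighter gave log2 values of 17.14 and 17.35 in untreated cells, 16.55 and 16.93 after LPS, and 16.43 and 16.80 in LPS+USP7i. The other gave 15.48 and 15.78, then 14.92 and 15.14, then 14.79 and 14.91. On both probes the untreated arrays were above the others, and on the brighter probe the LPS and LPS+USP7i arrays overlapped. For LPS minus untreated the log2 difference was -0.51 ± 0.21 (SE, n = 2 per group) on the brighter probe and -0.60 ± 0.15 on the other, with adjusted p of 0.225 and 0.0714. For LPS+USP7i minus LPS it was -0.12 ± 0.21 and -0.18 ± 0.15. The probes disagreed on the call in LPS+USP7i minus untreated. There -0.63 on the brighter had an adjusted p of 0.163 and -0.78 on the other had 0.0464. With the replicate number as a block, the brighter probe passed the threshold after LPS (adjusted p = 0.0429) and in LPS+USP7i minus untreated (0.037). With 75th percentile scaling the brighter probe gave 0.06 for LPS minus untreated, a change of sign against an all-gene shift of 0.40.

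*Mgll*, which encodes monoacylglycerol lipase, the enzyme that degrades monoacylglycerols including the endocannabinoid 2-arachidonoylglycerol, had 4 probes. The brightest gave log2 values of 10.51 and 9.05 in untreated cells, 10.16 and 8.69 after LPS, and 10.44 and 9.06 in LPS+USP7i. In each group the array of replicate 1 was higher than that of replicate 2, by 1.46, 1.47 and 1.38, and the groups overlapped. The log2 differences were -0.35 ± 0.88, 0.33 ± 0.88 and -0.03 ± 0.88 (SE, n = 2 per group) for LPS minus untreated, LPS+USP7i minus LPS and LPS+USP7i minus untreated, with adjusted p of 0.916, 0.917 and 1. Within each replicate number the brightest probe differed by -0.35 and -0.36 after LPS, and by 0.28 and 0.37 for LPS+USP7i minus LPS. With that number as a block, the adjusted p was 0.0525 and 0.0878, not past the threshold. Probes at other places in the gene gave -0.43 and -0.36 for LPS minus untreated and 0.31 and 0.34 for LPS+USP7i minus LPS. The remaining probe stayed between 2.02 and 2.21 and did not clear background on any of the 6 arrays. Without the block, no *Mgll* probe had a call in any comparison.

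A probe each of *Lpl* and *Mgll* is printed to show which stretch of the transcript was read: the dimmer *Lpl* probe lies at chr8:71425050-71425109 on the plus strand of mm9, and the *Mgll* probe that gave -0.36 and 0.34 above lies at chr6:88714636-88714695 on the plus strand.
Lpl probe: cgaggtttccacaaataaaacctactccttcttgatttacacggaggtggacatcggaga
Mgll probe: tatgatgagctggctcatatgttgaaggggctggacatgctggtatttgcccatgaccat

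**Figure D2:**
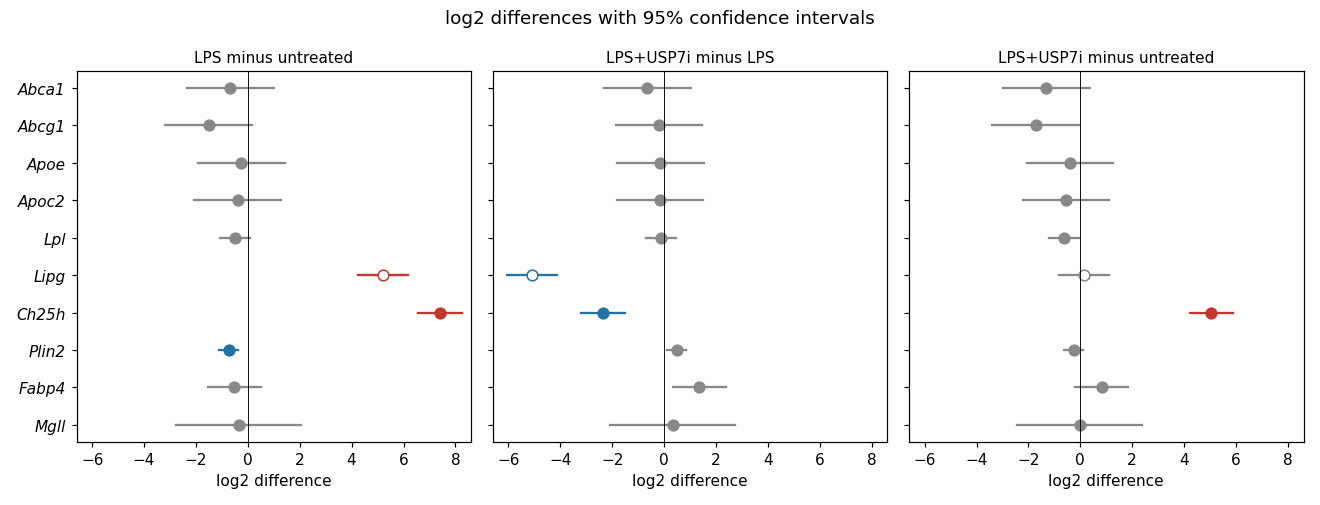
Difference in log2 intensity of each gene in the 3 comparisons, with 95% confidence intervals from the fit to all probes (red, higher and blue, lower at adjusted p under 0.05; grey, not past it). Open circles mark *Lipg*, for which at least 1 group was not well above background, so that the plotted difference is not a measured fold; *Plin2* has the narrowest intervals, and those of *Mgll*, -2.77 to 2.06 after LPS, are the widest.

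The sterol transporters had no call in any comparison without a block for the replicate number. With that block, *Abcg1* was called lower after LPS (adjusted p = 0.0162) and in LPS+USP7i minus untreated (0.0204). *Abca1* was then called lower in LPS+USP7i minus untreated (0.0365). No label ties the replicate numbers to shared cultures. *Abca1*, which hands cholesterol and phospholipid to lipid-poor apolipoprotein A-I, gave log2 values of 12.83 and 11.64 in untreated cells, 11.90 and 11.23 after LPS, and 11.44 and 10.40 in LPS+USP7i. The group means stepped down in that order, but neighbouring groups overlapped, and the LPS+USP7i arrays were both below both untreated arrays. The log2 difference was -0.67 ± 0.61 for LPS minus untreated, -0.64 ± 0.61 for LPS+USP7i minus LPS and -1.31 ± 0.61 for LPS+USP7i minus untreated (SE, n = 2 per group), with adjusted p of 0.583, 0.635 and 0.308. Leaving out 1 array moved these to between -1.26 and -0.07, -1.16 and -0.12, and -1.91 and -0.72. *Abcg1*, which exports sterol to mature HDL particles, gave 15.15 and 14.37 in untreated cells, 13.77 and 12.72 after LPS, and 13.58 and 12.49 in LPS+USP7i. Both untreated arrays were above the rest, and the LPS and LPS+USP7i arrays overlapped. Its log2 difference was -1.51 ± 0.60 for LPS minus untreated (adjusted p = 0.21), -0.21 ± 0.60 for LPS+USP7i minus LPS (0.928) and -1.72 ± 0.60 for LPS+USP7i minus untreated (0.183). For both transporters the array of replicate 1 exceeded that of replicate 2 in every group, by 0.67 to 1.19 for *Abca1* and by 0.78 to 1.09 for *Abcg1*.

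The *Abca1* promoter is printed as that of a gene known to be driven by LXR. The window lies at chr4:53159846-53160145 on the minus strand of GRCm38.p6 (RefSeq). Capitals mark an E-box, CACGTG, beginning 147 bases before the start, a sequence held by 7.15% of the 32851 windows. Sites of LXR were not analysed here.
Abca1 promoter: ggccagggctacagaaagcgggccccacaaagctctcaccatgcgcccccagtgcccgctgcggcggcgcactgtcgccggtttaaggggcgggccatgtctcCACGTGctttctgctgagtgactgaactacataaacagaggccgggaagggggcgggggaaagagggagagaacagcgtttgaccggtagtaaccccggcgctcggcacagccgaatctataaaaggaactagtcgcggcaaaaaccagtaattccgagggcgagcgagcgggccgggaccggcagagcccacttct

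Both apolipoprotein genes showed replicate gaps wider than any group difference. *Apoe*, whose product is a ligand of lipoprotein receptors and an acceptor of cellular cholesterol, was read by 1 probe in 10 spots per array, with an SD between those spots of at most 0.08. It gave log2 values of 17.51 and 16.53 in untreated cells, 17.31 and 16.23 after LPS, and 17.07 and 16.17 in LPS+USP7i. *Apoc2*, which encodes the activator of lipoprotein lipase, gave 13.34 and 12.23, then 12.86 and 11.92, then 12.67 and 11.79. For both genes replicate 1 was the higher array in all 3 groups and the groups overlapped throughout. The *Apoe* differences were -0.25, -0.15 and -0.40, each ± 0.60 (SE, n = 2 per group), for LPS minus untreated, LPS+USP7i minus LPS and LPS+USP7i minus untreated. Those of *Apoc2* were -0.39, -0.16 and -0.55, also ± 0.60, and no adjusted p of either gene was below 0.688 in this fit. With the replicate number as a block, the adjusted p after LPS was 0.136 for *Apoe* and 0.0793 for *Apoc2*. For LPS+USP7i minus LPS it was then 0.377 and 0.419. In LPS+USP7i minus untreated, the lowest adjusted p under any alternative was 0.0687 for *Apoe* and 0.052 for *Apoc2*. None of these passed the threshold. With 75th percentile scaling LPS minus untreated turned to 0.26 for *Apoe* and 0.02 for *Apoc2*.

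The *Apoe* probe lies at chr7:20281732-20281791 on the minus strand of mm9, near that of *Apoc2* at chr7:20257027-20257086 on the same strand, as both belong to 1 cluster of apolipoprotein genes. It is shown as the sequence with the most spots behind it.
Apoe probe: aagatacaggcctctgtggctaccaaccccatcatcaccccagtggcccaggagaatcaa

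*Apoc1* and *Apoc4* belong to the same cluster. *Apoc1* gave log2 values of 8.58 and 6.57 in untreated cells, 8.44 and 6.56 after LPS, and 7.69 and 6.53 in LPS+USP7i, with replicate 1 the higher array in each group, and its differences were -0.07, -0.39 and -0.46 with no call. *Apoc4* did not clear background on any array.

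*Plin2*, which encodes the perilipin that coats lipid droplets in macrophages, had a call after LPS. Its log2 values were 16.83 and 16.67 in untreated cells, 16.12 and 15.89 after LPS, and 16.59 and 16.39 in LPS+USP7i. No groups overlapped: LPS was lowest, LPS+USP7i in between and untreated cells highest. The gene fell by 0.74 ± 0.13 (SE, n = 2 per group) after LPS, or 1.67-fold, with an adjusted p of 0.0319. For LPS+USP7i minus LPS the log2 difference was 0.48 ± 0.13 (adjusted p = 0.123), and for LPS+USP7i minus untreated it was -0.26 ± 0.13 (adjusted p = 0.355). The call after LPS was lost without any 1 of the 6 arrays (adjusted p from 0.0555 to 0.137), in a fit of the 2 groups alone (0.0555), in the authors' own normalized table (0.0695) and with 75th percentile scaling, which gave -0.18 (0.27). That scaling also turned LPS+USP7i minus untreated to 0.16.

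The *Plin2* promoter is shown as that of the only gene among the 10 called lower after LPS without a block for the replicate number. It lies at chr4:86670010-86670309 on the minus strand of GRCm38.p6 (RefSeq), and capitals mark an E-box, CACGTG, that begins 4 bases before the start. *Mgll* has an E-box as well, beginning 44 bases before the start in 1 of its windows.
Plin2 promoter: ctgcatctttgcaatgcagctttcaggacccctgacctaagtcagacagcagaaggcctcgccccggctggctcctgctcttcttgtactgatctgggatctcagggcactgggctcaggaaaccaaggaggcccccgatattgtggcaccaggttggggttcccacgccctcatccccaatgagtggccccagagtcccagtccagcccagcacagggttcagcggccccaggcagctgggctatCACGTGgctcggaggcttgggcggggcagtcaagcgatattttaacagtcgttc

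*Fabp4*, a fatty acid–binding protein shared by macrophages and adipocytes, gave log2 values of 14.08 and 14.86 in untreated cells, 13.68 and 14.20 after LPS, and 15.06 and 15.52 in LPS+USP7i. Both inhibitor arrays were above all others, and the untreated and LPS arrays overlapped. The log2 difference was 1.35 ± 0.37 for LPS+USP7i minus LPS, a ratio of 2.54, with an adjusted p of 0.127. It was -0.53 ± 0.37 for LPS minus untreated (adjusted p = 0.493) and 0.82 ± 0.37 for LPS+USP7i minus untreated (0.296; SE, n = 2 per group). With normexp background correction or with dim probes left out, LPS+USP7i minus LPS passed the threshold, at adjusted p of 0.0258 and 0.0372. It also passed with the replicate number as a block (adjusted p = 0.0392), as did LPS+USP7i minus untreated (0.041). With 75th percentile scaling LPS minus untreated was 0.04.

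**Figure D3:**
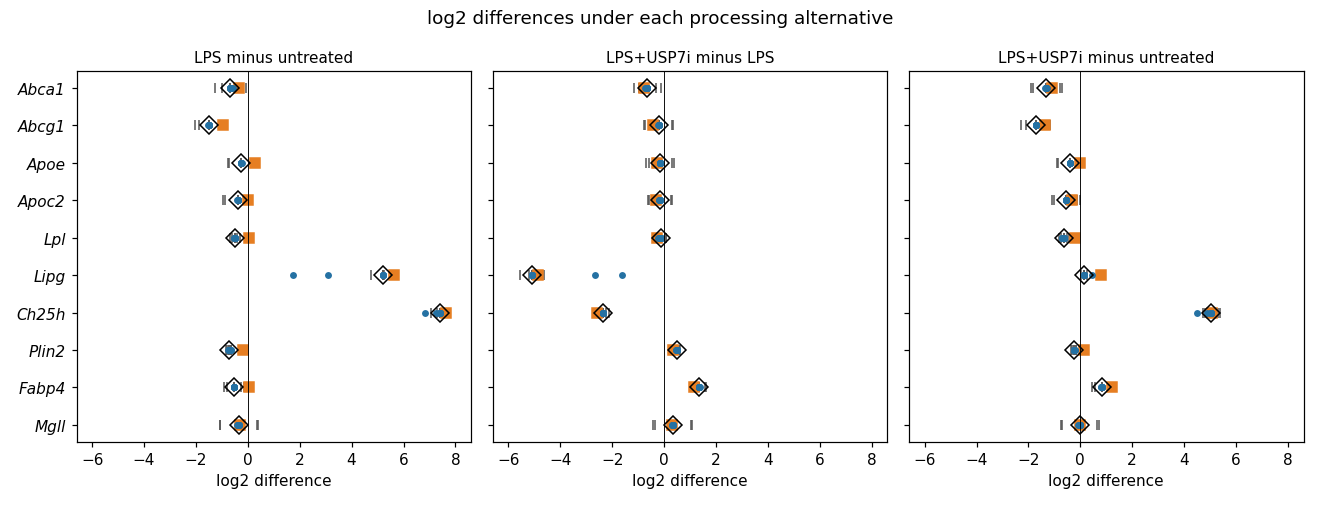
Difference in log2 intensity of each gene as reported (diamonds) and under the alternatives, with 75th percentile scaling as orange squares, each array left out as bars and the others as blue dots. *Ch25h* and *Lipg* keep the sign of their calls throughout, *Lipg* with sizes down to 1.75 after LPS where a background offset was added, and *Apoe*, *Apoc2* and *Mgll* lie on both sides of 0.

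Of 70 further genes listed by function in these pathways, all had a probe on the array. Where such a gene had several probes, only the brightest on average is reported, and agreement between its probes was not examined. The same holds for the marker genes below. Some of them did not clear background on any array and are counted as not called. After LPS, 4 of the 70 were higher and 19 lower at adjusted p under 0.05, with 47 not called and a median of -0.29. LPS+USP7i minus LPS gave 13 higher, 2 lower and 55 not called, with a median of 0.07, and LPS+USP7i minus untreated gave 4 higher, 11 lower and 55 not called, with a median of -0.08. The median over all gene names was 0.00 in each, and the shares of all gene names called are those given above. Those shares stand beside the counts by group below as well. The list was chosen with earlier results of these arrays known, so nothing is read from its counts, whole or by group. The largest called differences, up to 3 per group and comparison, kept their direction with 75th percentile scaling. The counts there became 14 higher and 19 lower after LPS, 9 and 2 for the inhibitor, and 13 and 14 for LPS+USP7i minus untreated. Of all gene names, 35% were higher and 11.6% lower after LPS with that scaling, 4.93% and 4.08% for the inhibitor, and 35.1% and 9.65% for LPS+USP7i minus untreated.

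Leaving out 1 array at a time gave 2 to 4 higher and 8 to 19 lower after LPS, the 8 and 11 lower coming without an untreated array. For LPS+USP7i minus LPS it gave 0 to 9 higher and 0 to 2 lower. The limma fit called 0 of 70 there without either untreated array, as did the fit of the 2 groups alone, where 0 probes on the whole array were called and 11235 had an unadjusted p under 0.05. For LPS+USP7i minus untreated it gave 1 to 3 higher and 0 to 8 lower, the 0 coming from limma without either untreated array, with 12225 and 11999 probes of the whole array at an unadjusted p under 0.05. The fit of those 2 groups alone gave 2 higher and 7 lower.

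In the sterol efflux and LXR group of 15, 3 genes were lower after LPS. *Rxrb*, a partner of LXR, fell by 1.57 ± 0.13 after LPS (adjusted p = 0.00649), and was still lower in LPS+USP7i, at -1.15 against untreated cells (adjusted p = 0.0158). *Scarb1*, a receptor for HDL, fell by 0.62 ± 0.09 (adjusted p = 0.0217), and its log2 difference between LPS+USP7i and LPS was -0.05; against untreated cells LPS+USP7i was 1.6-fold lower (adjusted p = 0.0232). *Npc1*, which moves cholesterol out of lysosomes, fell by 0.61 ± 0.09 after LPS (adjusted p = 0.0205) and was higher by 0.60 ± 0.09 with the inhibitor (adjusted p = 0.0378). The LXR genes themselves had no call. *Nr1h3* gave log2 values of 11.23 and 10.78 in untreated cells, 12.08 and 11.43 after LPS, and 10.86 and 10.18 in LPS+USP7i, and *Nr1h2* lay between 13.64 and 14.05 on all arrays.

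Of 6 oxysterol genes, *Hsd3b7*, whose enzyme acts on 7α-hydroxylated sterols, was lower after LPS by a log2 difference of -1.24 ± 0.09 (adjusted p = 0.00509) and higher with the inhibitor by 1.08 ± 0.09 (adjusted p = 0.0155). *Gpr183*, the receptor for an oxysterol made from the CH25H product, gave 8.17 and 7.93 in untreated cells and 5.86 and 6.05 after LPS, and was not well above background in LPS+USP7i. It was at least 13.3-fold lower in LPS+USP7i than in untreated cells (adjusted p = 0.0236), and its LPS minus untreated value of -2.09 had an adjusted p of 0.13. *Cyp7b1*, which works downstream of *Ch25h*, stayed at background on all arrays.

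Among 18 lipases and lipase partners, 7 were lower after LPS, and 5 were higher and 1 lower with the inhibitor. Of these 18, 13 were well above background on all arrays. Of all gene names, dim ones included, 12.7% were lower after LPS, and 5.42% higher and 4.29% lower with the inhibitor. *Angptl4*, an inhibitor of lipoprotein lipase, gave 11.42 and 10.77 in untreated cells, was not well above background after LPS, and gave 7.92 and 6.37 in LPS+USP7i. It was at least 97.4-fold lower after LPS (adjusted p = 0.00727) and was 15.4-fold lower in LPS+USP7i than in untreated cells (adjusted p = 0.0283). *Dagla*, which makes the substrate of monoacylglycerol lipase, fell by 2.47 ± 0.24 after LPS (adjusted p = 0.0082) and was 3.03-fold lower in LPS+USP7i than in untreated cells (adjusted p = 0.0267). *Nceh1*, a cholesteryl ester hydrolase, fell by 1.67 ± 0.08 (adjusted p = 0.00332) and was higher by 0.70 ± 0.08 with the inhibitor (adjusted p = 0.0254), still 1.95-fold below untreated cells (adjusted p = 0.00998). With the inhibitor, *Abhd5*, the co-activator of adipose triglyceride lipase, was higher by 1.42 ± 0.21 (adjusted p = 0.0367), and *Lipe*, hormone-sensitive lipase, was lower at -1.93 ± 0.20 (adjusted p = 0.022). *Pnpla7* was 1.76-fold lower after LPS (adjusted p = 0.0349) and 2.06-fold lower in LPS+USP7i than in untreated cells (adjusted p = 0.0252).

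Of 15 lipid droplet genes, 1 was higher and 3 lower after LPS, and 3 were higher with the inhibitor. *Dgat2*, which completes triglyceride synthesis, gave 6.51 and 6.35 in untreated cells, 8.52 and 8.32 after LPS, and 10.46 and 9.81 in LPS+USP7i, and was called higher in all 3 comparisons, by 1.99, 1.72 and 3.71, each ± 0.25 (adjusted p = 0.0148, 0.0369 and 0.00723). *Plin3* fell by 1.24 ± 0.14 after LPS (adjusted p = 0.0117). *Fitm2*, needed for droplet formation, fell by 1.03 ± 0.07 after LPS (adjusted p = 0.00469) and was higher by 1.09 ± 0.07 with the inhibitor (adjusted p = 0.0125). *Soat1*, which esterifies cholesterol, fell by 0.92 after LPS (adjusted p = 0.0071) and was 1.43-fold higher with the inhibitor (adjusted p = 0.0421). Of the perilipins beside *Plin2* and *Plin3*, *Plin1* and *Plin5* did not clear background on any array and *Plin4* only on 1 untreated array.

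The 16 genes of fatty acid uptake and activation held 3 higher and 5 lower after LPS, and 3 higher and 1 lower with the inhibitor. *Acsl1*, an acyl-CoA synthetase, was 5.56-fold higher after LPS (adjusted p = 0.00538) and 2.54-fold lower with the inhibitor added (adjusted p = 0.0324), 2.19-fold above untreated cells (adjusted p = 0.0332). *Acsl3*, another, fell by 1.85 after LPS (adjusted p = 0.016) and was 4.77-fold higher with the inhibitor (adjusted p = 0.0223). *Pparg*, a nuclear receptor that controls *Fabp4* in adipocytes, fell by 2.25 ± 0.10 after LPS (adjusted p = 0.00307). It was 2-fold higher with the inhibitor (adjusted p = 0.0196) and lower in LPS+USP7i than in untreated cells at -1.24 (adjusted p = 0.00884). *Ppard* fell by 2.20 ± 0.20 after LPS (adjusted p = 0.00735). With the inhibitor *Ppard* was 12.4-fold higher than after LPS alone (adjusted p = 0.0113) and 2.69-fold higher than in untreated cells (adjusted p = 0.0239). *Fabp3*, a carrier related to *Fabp4*, was 3.17-fold higher after LPS (adjusted p = 0.00641) and 2.56-fold higher in LPS+USP7i than in untreated cells (adjusted p = 0.013). *Lrp1*, a receptor of apolipoprotein E, was 2.24-fold lower after LPS (adjusted p = 0.0196) and 2.59-fold lower in LPS+USP7i than in untreated cells (adjusted p = 0.018).

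**Figure D4:**
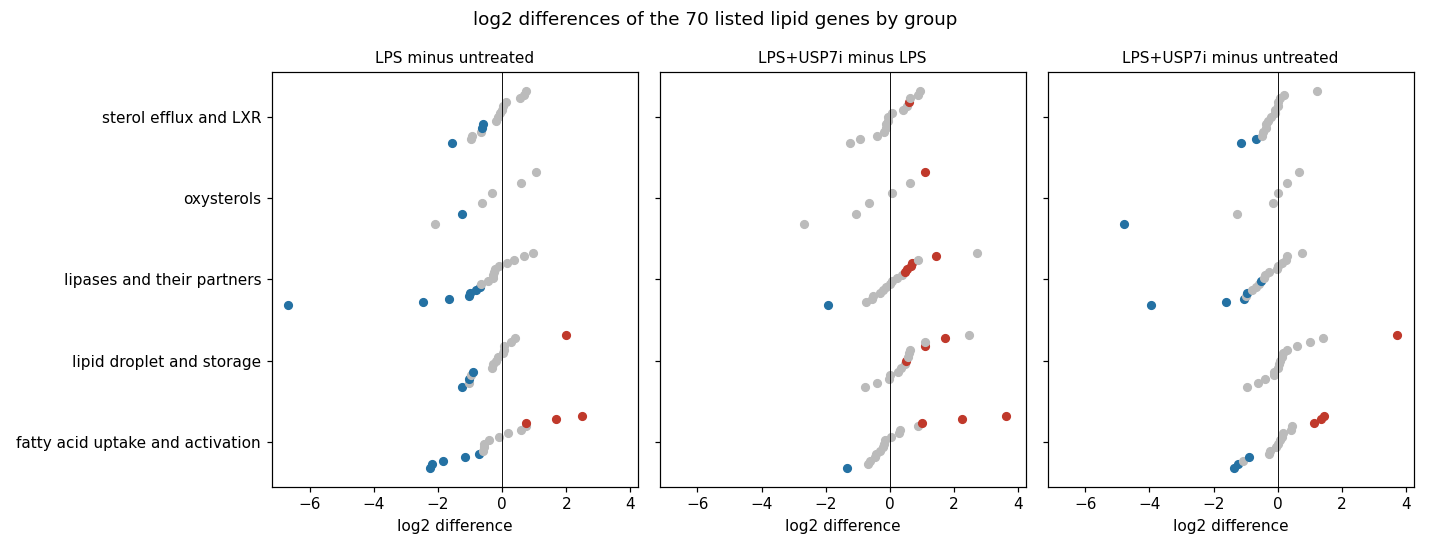
Difference in log2 intensity of the 70 listed genes, a point per gene, in 5 groups and 3 comparisons (red, higher and blue, lower at adjusted p under 0.05; grey, not past it); within a group, genes are stacked by size of difference. The blue points after LPS number 19 and the red points with the inhibitor 13; *Angptl4*, at the far left after LPS, and *Gpr183*, at the far left of LPS+USP7i minus untreated, have bounds rather than measured folds.

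For each of the 9 genes measured well above background on all 6 arrays, the gene of most similar profile was taken as the one at the smallest Euclidean distance between log2 values centred on their mean, out of 15442 to 15444 probes of RefSeq-named genes. For *Ch25h* it was *Ccl12*, at a distance of 0.73, with log2 differences of 7.57 after LPS and -1.84 for LPS+USP7i minus LPS. For *Plin2* it was *Ribc1* at 0.10, for *Lpl* it was *Cux1* at 0.10 and for *Fabp4* it was *Clec4n* at 0.28. *Apoe* was nearest to *Cpe* at 0.14, and *Apoc2* was nearest to *Apoe* at 0.22. *Abca1* was nearest to *Derl3* at 0.50, *Abcg1* to *Kit* at 0.33 and *Mgll* to *Dmpk* at 0.38. *Lipg* was left out, as it was not well above background on all arrays.

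The labelled cell type was checked against marker genes. All 8 macrophage markers were well above background on every array, with *Csf1r* the brightest. Their summed normalized intensity was 727766 and 719077 in untreated cells, 737876 and 746415 after LPS, and 624968 and 584968 in LPS+USP7i. *Cd14* rose by 1.70 after LPS (adjusted p = 0.005) and was lower with the inhibitor at -1.33 (adjusted p = 0.0176), while *Itgam* fell by 0.65 after LPS (adjusted p = 0.0237). *Fcgr1* was lower with the inhibitor at -1.61 (adjusted p = 0.0318) and lower in LPS+USP7i than in untreated cells at -1.26 (adjusted p = 0.0376).

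Of 7 neutrophil markers, 6 were well above background on all arrays, with *Elane* the brightest on average, and 0 had a call in any comparison. Their summed intensity was 5242 and 6931 in untreated cells, 5875 and 11667 after LPS, and 6197 and 9681 in LPS+USP7i, higher on the replicate 2 array of each group. The 5 lymphocyte markers, led by *Cd3e*, summed to 884 and 631, then 1177 and 679, then 1065 and 746, higher on the replicate 1 arrays, as were *Abca1*, *Abcg1*, *Apoe*, *Apoc2* and *Mgll*. Single markers did not all follow their sum: *S100a9* gave log2 values of 7.69 and 10.72 in untreated cells, but *Ly6g* gave 10.11 and 9.11 and *Mpo* 8.40 and 6.45, both higher on replicate 1 in every group. Of the lymphocyte markers, *Ms4a1* gave 6.66 and 2.67 in untreated cells and *Cd3d* 2.92 and 5.02. The part of other cells in the replicate gaps was not tested, and in RNA from whole cultures fewer cells of a type and less RNA per cell cannot be told apart.

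Of 6 adipocyte markers, *Adipoq*, *Plin1*, *Cidec* and *Lep* did not clear background on any array. The list, led on average by *Cfd*, summed to 52.4 and 41.9 in untreated cells, 41.7 and 35.1 after LPS, and 55.5 and 101 in LPS+USP7i, where the *Cfd* spot of replicate 1 was left out by its outlier flag. *Adipoq* was nonetheless called higher in LPS+USP7i than after LPS (adjusted p = 0.0224) and than in untreated cells (adjusted p = 0.0126), for which no fold is given. *Retn*, above background on 1 LPS+USP7i array only, was called higher than after LPS as well (adjusted p = 0.034). Of 4 dendritic cell markers, 3 stayed at background, and *Zbtb46* gave 3.93 and 3.95 in untreated cells, 6.29 and 6.59 after LPS, and 5.93 and 6.24 in LPS+USP7i, at least 5.65-fold higher after LPS than in untreated cells (adjusted p = 0.00435) and at least 4.41-fold higher in LPS+USP7i than in untreated cells (adjusted p = 0.00809). The 4 summed to 32.4 and 41.9, then 117 and 126, then 79.9 and 90.6. Of 5 stromal markers, *Col1a1*, *Col3a1* and *Pdgfra* stayed at background, while *Dcn* was above background on 5 of 6 arrays and the brightest on both untreated arrays. *Pdgfrb*, the brightest on average, gave 2.86 and 4.35 in untreated cells, 8.89 and 8.89 after LPS, and 3.02 and 5.22 in LPS+USP7i. Their sum was 48.9 and 66.6, then 564 and 534, then 82 and 83.9. *Pdgfrb* was called higher after LPS (adjusted p = 0.0323). As only 1 of 2 arrays was well above background in each other group, its log2 difference of 5.29 is not a measured fold.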

How the data were processed

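RNA from BMDMs of 3 groups (untreated, LPS, LPS+USP7i; 2 arrays each) was labelled with Cy3. Per the file headers, Agilent Feature Extraction background-subtracted and detrended the intensity of each spot; these deposited values were not normalized between arrays. The deposited table of log2 values had been quantile normalized by the authors with limma and served as an alternative.

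Flagged outlier spots were dropped, processed intensities of the other non-control spots were log2 transformed and quantile normalized, and spots of a probe were averaged. limma 3.58.1 in R 4.3.3 was fitted to all 6 arrays (3 residual and 1.05 prior degrees of freedom), with Benjamini-Hochberg adjustment over 55680 probes and a threshold of 0.05. When tested on simulated data, the fit called 63% of 8-fold changes planted among 55633 probes, with 11 false calls, in LPS+USP7i minus LPS. The simulation changed few probes and drew noise independently for each array, unlike these data, so 63% is not their recovery rate. A missing call does not mean a missing change. A probe was well above background on an array where most of its spots carried that flag. Bounds set a dim array at its lowest such log2 value, from 3.86 to 4.54, or at its own value where that was larger. Array number limits precision.

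The 10 genes, the pathway list and the marker lists were chosen with earlier results of these data known. Named pathway genes were, per comparison and group, at most 3 past the threshold with the largest difference and well above background on both arrays of a compared group, plus the LXR genes, *Apoc1* and *Apoc4*. *Cyp7b1*, other perilipins and single markers were named after their values were seen. Names came from the array files or from RefSeq accessions (GRCm38.p6 table). Promoter windows, for 6 of the 10 genes (9 windows), came from RefSeq. Alternatives were 75th percentile scaling, normexp with an offset of 50, the deposited table, a filter on dim probes, kept outlier flags, fits of 2 groups, a trended prior, the replicate number as a block, each array left out and the median over a gene's probes. Tables and figures were made with Python 3.11.15, pandas 2.3.3, NumPy 2.4.6 and Matplotlib 3.10.9.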

Additional observations from a re-analysis of the deposited data

How the results depend on the processing

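Of 450 log2 differences of the 10 genes recomputed under 15 alternatives per gene and comparison, 394 kept their direction and their side of the threshold, 19 lost a call, 11 gained one (10 by adjusted p and *Lpl* by the count of its probes) and 26 changed sign. Some of the 394 were fixed by construction. The median over probes repeats the result of a gene without further probes. Leaving out an array of the group not compared keeps the log2 difference and amounts to the fit of 2 groups. A call lost in that fit is therefore counted more than once among the 19. *Ch25h* and *Lipg* stayed higher after LPS, with a call, under all 15, as did *Ch25h* in LPS+USP7i minus untreated. No called difference changed sign.

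With 75th percentile scaling, LPS minus untreated turned to 0.26 for *Apoe*, 0.02 for *Apoc2*, 0.06 for *Lpl* and 0.04 for *Fabp4*, and LPS+USP7i minus untreated to 0.16 for *Plin2*; 0 of the 10 genes were then lower after LPS, and 27437 probes were called in LPS minus untreated (against 9890) and 26542 in LPS+USP7i minus untreated (against 7257), the all-gene median having moved up. In the deposited table and in fits of 2 groups, 0 genes were lower after LPS. With normexp 1 gene was higher in LPS+USP7i minus LPS and 1 lower in LPS+USP7i minus untreated, and with dim probes left out 1 was higher in LPS+USP7i minus LPS, where the probes called were 7016 and 7050 against 4670. The fit of 2 groups, with fewer arrays behind its spread, called 0 genes lower and 0 probes in LPS+USP7i minus LPS (11235 at an unadjusted p under 0.05) and 4726 probes in LPS+USP7i minus untreated. By the median of a gene's probes, where at least 1 in 2 of them had to pass, 1 gene was counted lower in LPS+USP7i minus untreated: *Lpl*, with 1 of its 2 probes past the threshold and a median adjusted p of 0.105. Other causes were not tested.

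With the replicate number as a block, 3 genes were lower after LPS, with *Abcg1* (adjusted p = 0.0162) and *Lpl* (0.0429) beside *Plin2*. 1 was higher in LPS+USP7i minus LPS, *Fabp4* (0.0392). In LPS+USP7i minus untreated 2 were higher, *Ch25h* and *Fabp4* (0.041), and 3 lower, *Abca1* (0.0365), *Abcg1* (0.0204) and *Lpl* (0.037). Of all 55680 probes the block fit called 4168 higher and 6183 lower after LPS, 1929 and 1602 in LPS+USP7i minus LPS, and 3190 and 4398 in LPS+USP7i minus untreated. Over probes well above background on all arrays, replicate deviations of the same number correlated at 0.47, 0.40 and 0.42 between groups. With only 2 numbers per group and no label that ties them to shared cultures, the arrays are treated as sharing a number only.

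With each array left out in turn, a group of 1 array being assumed to vary like the others, 0 genes were lower after LPS each time and 0 to 1 lower in LPS+USP7i minus LPS. Probes called ranged from 4024 to 9122 in LPS minus untreated, 0 to 4595 in LPS+USP7i minus LPS and 1569 to 5580 in LPS+USP7i minus untreated. Differences that crossed 0 were, after LPS, those of *Apoe* (-0.78 to 0.29), *Apoc2* (-0.95 to 0.16) and *Mgll* (-1.09 to 0.38). For LPS+USP7i minus LPS they were *Abcg1* (-0.76 to 0.34), *Apoe* (-0.68 to 0.39), *Apoc2* (-0.63 to 0.31), *Lpl* (-0.32 to 0.07) and *Mgll* (-0.41 to 1.06), and for LPS+USP7i minus untreated *Apoe* (-0.89 to 0.10), *Apoc2* (-1.11 to 0.00) and *Mgll* (-0.76 to 0.70). Others moved by over 1.5 times without crossing 0: those of *Abca1* in all comparisons, of *Abcg1* (-2.04 to -0.99), *Lpl* (-0.70 to -0.31) and *Fabp4* (-0.92 to -0.14) after LPS, and of *Fabp4* (0.43 to 1.20) and *Plin2* (-0.36 to -0.16) in LPS+USP7i minus untreated, as did that of *Lipg* (0.01 to 0.25), at background in both groups.

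The pathway list was put through 14 of these alternatives after its counts had been seen; no difference chosen by the naming rule (largest called differences) changed sign, and the other values of named genes were not put through them. Signal over background limits *Lipg* to a bound.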
